A study of Drosophila melanogaster with 8 samples.

Results

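The glutathione transferases of Drosophila melanogaster were examined as a gene family in whole flies mutant for DHR39 and in controls. The family was taken as every gene whose symbol in the deposited annotation begins with Gst, a class letter and a number, which gave 35 of the 14865 genes in the table: 11 of the delta class, 14 of the epsilon class, 3 of the omega class, 1 of the sigma class, 4 of the theta class and 2 of the zeta class. Messenger RNA was measured in 3 DHR39 libraries and in 5 control libraries. The titles mark the control libraries as re-used, without saying from where. DHR39, with the gene symbol Hr39, is a nuclear receptor, and the sample sheet names the mutant DHR393.48 and the controls w1118, a stock with a mutation in the eye colour gene white. Effects of the allele and of other differences between the mutant and w1118 flies, such as stock background, cannot be told apart here. All flies were aged to day 8 of adulthood on food of 8% yeast and 9% sugar. The lesion of the allele, the sex of the flies and whether each library came from a culture of its own are not given in the labels, so the p-values rest on how much these libraries differ, which may be technical.

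Total counts ran from 16072497 to 19935574 per library. Hr39 RNA was at 24.4, 26.5 and 30.1 CPM (counts scaled to library size, the unit of level used throughout) in DHR39 flies, against 39.9, 34.6, 33.8, 35.6 and 37.0 CPM in controls, so the mutant still made the transcript. The yolk protein genes Yp1, Yp2 and Yp3, markers of adult females, together reached 8.87 to 14.3 CPM in DHR39 flies and 10.6 to 16.8 CPM in controls, and the male-specific RNA roX1 averaged 591 CPM in DHR39 flies and 663 CPM in controls. Both groups thus carried roX1 at a high level and yolk protein genes at low levels. The male-specific RNA roX2 was low too, at 11.1 CPM in DHR39 flies and 11.2 CPM in controls. In whole flies, fewer cells of a type and less RNA per cell cannot be told apart.

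Glutathione transferases join the tripeptide glutathione to reactive or foreign molecules, which makes them more soluble and ready for export, and some also reduce peroxides or act as isomerases. The delta and epsilon classes belong to insects and other arthropods and are known for resistance to insecticides, whereas the omega, sigma, theta and zeta classes are shared with vertebrates. In flies many of these genes are induced by foreign compounds and oxidative stress through the transcription factor Cnc and its inhibitor Keap1, and they are expressed in the midgut, the Malpighian tubules and the fat body.

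The classes differed in what was called. In the delta class 8 of 11 members rose in DHR39 flies, 0 fell and 3 did not pass the test. In the epsilon class 1 of 14 rose, 1 fell and 12 did not pass. In the theta class 2 of 4 fell and 2 did not pass. None of the 3 omega, 1 sigma and 2 zeta genes passed in the main edgeR fit or in DESeq2, or had an unadjusted p under 0.05 in the main fit. These calls are at an adjusted p under 0.05 in the edgeR quasi-likelihood test over all 13506 tested genes, of which 6.58% were called higher and 10.7% lower. Over all 35 members 9 rose and 3 fell, and the median log2 fold change (DHR39 minus control) was -0.027, close to the -0.0044 of all tested genes. The DHR39 and control libraries did not overlap for 9 members that were higher in DHR39 flies and for 4 that were lower, against 9.74% and 13.4% of all tested genes. The median was 1.37 in the delta class, -0.32 in the epsilon class, -0.39 in the theta class, 0.13 in the omega class and 0.15 in the zeta class. The numbers of members called did not move by more than 1.5 times under any alternative run, and the 8 delta calls were kept in each of them.

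**Figure D1:**
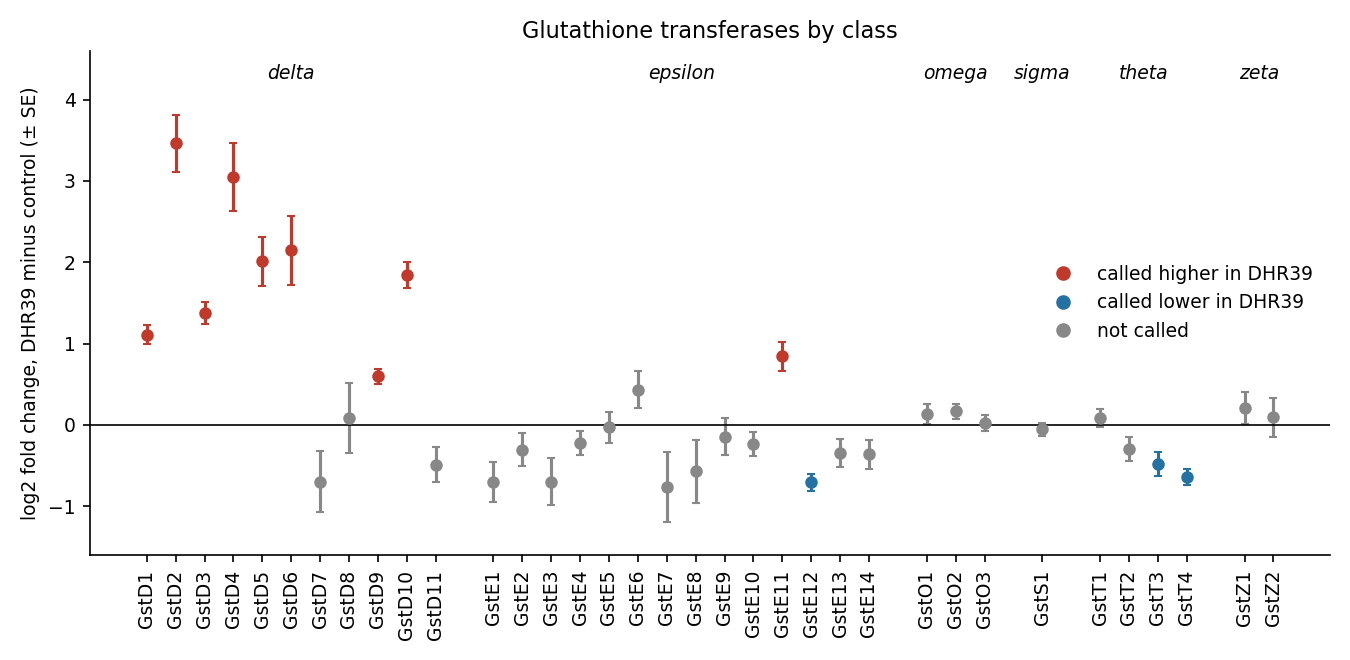
Log2 fold change of each of the 35 glutathione transferases (DHR39 minus control, points, with the SE as bars), grouped by class, with red for genes called higher in DHR39 flies, blue for genes called lower and grey for genes not called. The 8 red delta genes lie between 0.60 and 3.46, and the members of the other classes lie between -0.76 and 0.84.

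The delta genes lie next to each other. On the BDGP6 assembly all 11 fall within 20849 bases of chromosome arm 3R, from 12364776 to 12385624, with GstD10, GstD9 and GstD1 on the minus strand and the other members on the plus strand. All are protein coding. The annotation gives no intron to 7 of the 11, which are GstD2 to GstD8. Along the chromosome the order is GstD10, GstD9, GstD1, GstD2, GstD3, GstD4, GstD5, GstD6, GstD7, GstD8 and GstD11, so the 8 genes that rose are consecutive members and the 3 that did not pass the test stand at one end. No delta gene overlaps another annotated gene, but delta genes resemble each other in sequence, and reads that match more than 1 of them make the separate values uncertain.

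GstD1 (FBgn0001149), at 3R from 12367817 to 12369268, is known for breaking down DDT and as a reporter of oxidative stress. It was at 1064, 1256 and 1164 CPM in DHR39 flies, against 601, 619, 431, 515 and 521 CPM in controls. The lowest DHR39 library thus lay well above the highest control. GstD1 rose by 1.11 ± 0.12 on the log2 scale (± SE; edgeR adjusted p = 3.88e-05), a ratio of means of 2.16.

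GstD2 (FBgn0010038), at 3R from 12371971 to 12372704, had the largest log2 fold change of the 35. It was at 191, 171 and 94.9 CPM in DHR39 flies, against 5.65, 21.6, 10.3, 11.7 and 19.9 CPM in controls. The lowest DHR39 library lay far above the highest control, although the libraries also differed within each group, with DHR39 replicate 3 and control replicate 1 the lowest of theirs. It rose by 3.46 ± 0.35 on the log2 scale (edgeR adjusted p = 3.13e-05), and the mean was 152 ± 50.8 CPM in DHR39 flies and 13.8 ± 6.72 CPM in controls (SD, n = 3 and n = 5). GstD10 (FBgn0042206), at 3R from 12364776 to 12365735, rose to 28.6, 32.9 and 24.9 CPM in DHR39 flies, against 6.23, 9.47, 6.60, 7.97 and 9.81 CPM in controls. Its log2 fold change was 1.84 ± 0.16 and its edgeR adjusted p of 7.92e-06 was the smallest of the family. GstD9 (FBgn0038020), which lies between GstD10 and GstD1, had the smallest rise of the 8, with 60.5, 53.6 and 55.1 CPM in DHR39 flies and 34.4, 39.0, 37.2, 33.8 and 42.1 CPM in controls (log2 fold change 0.60 ± 0.097, edgeR adjusted p = 0.00107). The 3 genes on the minus strand thus all rose, with no overlap between the groups, but by unequal amounts.

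GstD3 (FBgn0010039) is known for a shortened N-terminus that lacks part of the usual active site. It was at 50.8, 47.8 and 74.6 CPM in DHR39 flies, against 20.9, 23.6, 20.9, 23.1 and 22.9 CPM in controls. The controls hardly differed among themselves, and DHR39 replicate 3 stood above the other mutant libraries. The log2 fold change was 1.37 ± 0.14 (edgeR adjusted p = 2.53e-05). GstD5 (FBgn0010041) was at 56.9, 64.6 and 99.0 CPM in DHR39 flies, against 30.2, 20.3, 9.27, 13.0 and 18.4 CPM in controls, higher by 2.01 ± 0.30 on the log2 scale (edgeR adjusted p = 0.000569). DHR39 replicate 3, the lowest mutant library for GstD2 and GstD10, was the highest for GstD3, GstD5 and GstD6, so the called genes did not all follow the same order of mutant libraries.

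GstD4 (FBgn0010040) and GstD6 (FBgn0010042) had few counts in the controls. GstD4 had 48, 45 and 40 counts in DHR39 flies, against 3, 9, 1, 8 and 4 counts in controls. That is 2.41 ± 0.321 CPM in DHR39 flies and 0.282 ± 0.186 CPM in controls, higher by 3.05 ± 0.42 on the log2 scale (edgeR adjusted p = 0.000324). GstD6 had 18, 36 and 48 counts in DHR39 flies, against 3, 5, 8, 10 and 10 counts in controls, higher by 2.15 ± 0.43 on the log2 scale (edgeR adjusted p = 0.00429). Both genes lie among members with far more reads, and what reads of those neighbours add to such small counts was not tested.

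The 3 delta genes that did not pass the test were all below 10 CPM in every library. GstD7 averaged 1.34 ± 0.621 CPM in DHR39 flies and 2.15 ± 0.702 CPM in controls (log2 fold change -0.70 ± 0.37, edgeR adjusted p = 0.253). GstD8 averaged 4.57 ± 1.30 CPM in DHR39 flies and 4.29 ± 2.81 CPM in controls (0.086 ± 0.43, edgeR adjusted p = 0.931), with control replicate 2 at 8.66 CPM and control replicate 4 at 2.06 CPM. GstD11 averaged 2.89 ± 0.342 CPM in DHR39 flies and 4.06 ± 0.856 CPM in controls (-0.49 ± 0.21, edgeR adjusted p = 0.156). With the replicates paired as a block GstD8 passed the test, at 0.89 ± 0.22 (edgeR adjusted p = 0.0206), and GstD7 and GstD11 did not. That estimate leaves out control replicates 1 and 2, the highest GstD8 controls at 5.48 and 8.66 CPM.

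**Figure D2:**
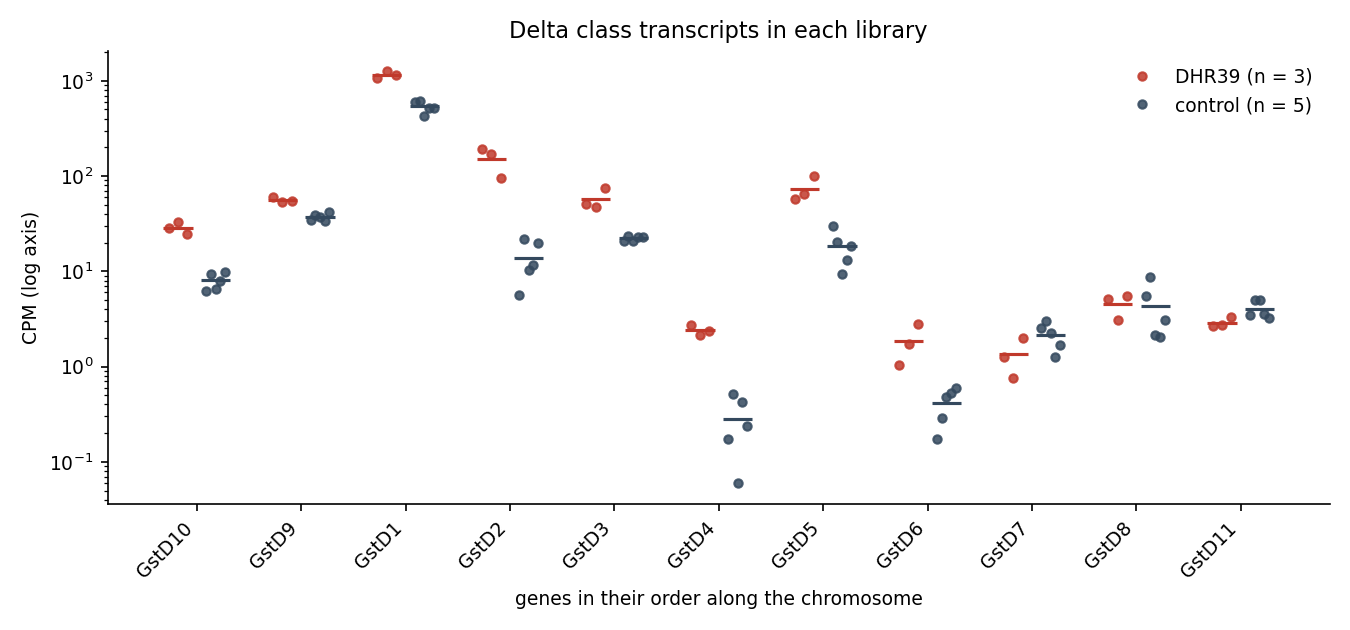
Level of each delta class transcript in CPM on a log axis, in DHR39 libraries (red, n = 3) and control libraries (dark, n = 5), with horizontal lines at the group means and genes in their order along the chromosome. The red and dark points are apart from GstD10 to GstD6, and they overlap for GstD7, GstD8 and GstD11.

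The nearest genes outside the run did not pass the test. Tim17a1, a paralogue of a mitochondrial import protein that lies next to GstD10, differed by 0.015 ± 0.13 on the log2 scale (edgeR adjusted p = 0.962). CG4115 and, past GstD11, CG34402 and CG33098 did not pass the test either, with log2 fold changes of -0.36 ± 0.18, -0.25 ± 0.17 and -0.049 ± 0.13. Of the tested neighbours within 10 kb of the run, MBD-R2, a chromatin protein gene, was called higher, by 0.34 ± 0.087 (edgeR adjusted p = 0.0174), and that call ended without DHR39 replicate 2 (0.0587) and without DHR39 replicate 3 (0.105). Inside the run, the noncoding gene CR46015 and the coding gene CG10035 were below 1 CPM and did not pass the test. In the epsilon run the 10 members had no call. Within 10 kb of it, IM3, CG16836 and CG15065 rose by 1.32 ± 0.18, 1.79 ± 0.14 and 1.17 ± 0.17 (edgeR adjusted p = 0.000268, 3.53e-06 and 0.000409). CG15068 and Idgf5, which lie between these genes and the run, did not pass the test. IM2, imd and Dp1, the other tested genes within 10 kb, did not pass either. IM3 encodes a short peptide induced by infection.

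**Figure D3:**
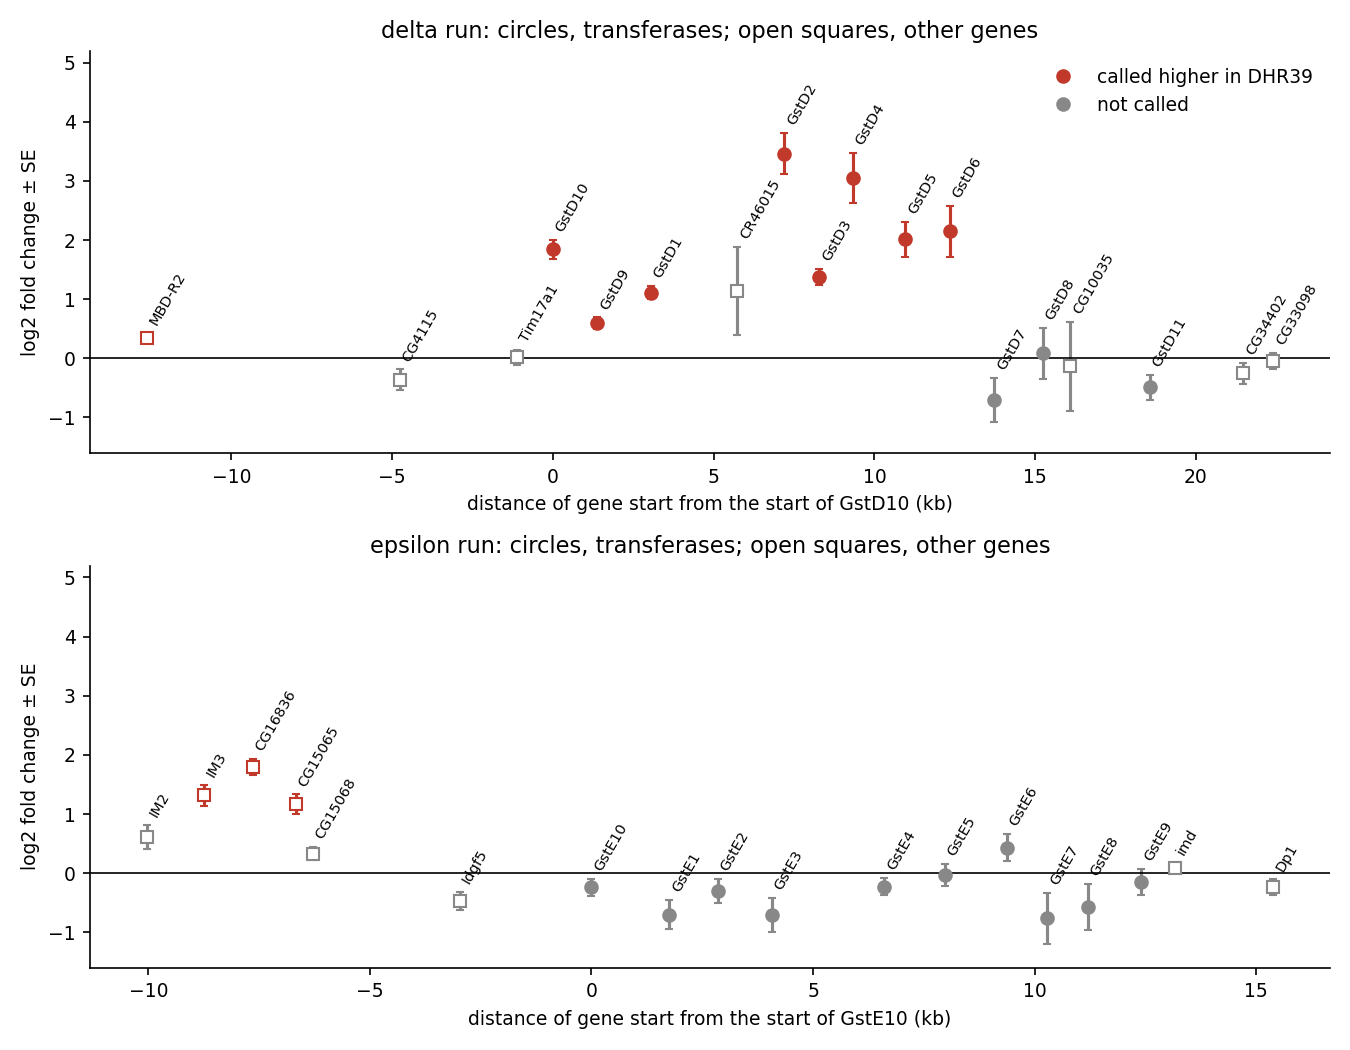
Log2 fold change (DHR39 minus control, with the SE as bars) against the distance of each gene's start from the first gene of the run in kb, for the delta run (upper panel) and the epsilon run (lower panel), with filled circles for transferases, open squares for other genes, red for genes called higher and grey for genes not called. In the delta run GstD10 to GstD6 are called and Tim17a1 beside them is at 0.015, and in the epsilon run no transferase is called.

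Of the epsilon class, 10 genes, GstE1 to GstE10, lie together within 13198 bases of 2R, from 18396638 to 18409835, and 4 lie apart. None of the 10 was called in the main edgeR fit, 2 had an unadjusted p under 0.05 in it, and DESeq2 called 1, GstE1. Of the 4 that lie apart, GstE11 and GstE12 were called. GstE1, the member of the run nearest to a call, was at 41.2, 50.4 and 54.9 CPM in DHR39 flies, against 108, 103, 49.1, 53.9 and 82.6 CPM in controls. The groups overlapped through control replicates 3 and 4 (log2 fold change -0.70 ± 0.25, edgeR adjusted p = 0.0765). GstE1 passed the test without control replicate 3 (edgeR adjusted p = 0.0192), without control replicate 4 (0.0362) and with DESeq2 (DESeq2 adjusted p = 0.0177), and its adjusted p lay between 0.0177 and 0.224 in the alternatives run. GstE1 and GstE10 overlap on opposite strands, as do GstE9 and the immune gene imd, so their reads are uncertain to that extent.

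The same controls were low for most of the run. Control replicates 3 and 4 were the lowest of the 5 controls in 8 of the 10 genes, all but GstE4 and GstE10. The pattern was not confined to the run. GstD1, GstD5, GstD8 and GstE12 were also lowest in these controls, while GstD2, GstD10 and GstT4, among others, were not. The whole family summed to 2308 and 2332 CPM in control replicates 3 and 4. It summed to 2983, 2929 and 2682 CPM in control replicates 1, 2 and 5. GstE7 was at 22.6, 22.6 and 31.2 CPM in DHR39 flies, against 77.0, 40.5, 17.9, 18.1 and 62.6 CPM in controls, a 4.31-fold span among controls and a 1.38-fold span in the mutant. GstE3 was at 58.7, 58.5 and 68.7 CPM in DHR39 flies, against 158, 88.4, 61.5, 61.4 and 134 CPM in controls. For both genes the mutant libraries lay beside the 2 low controls. GstE6 went the other way, at 109, 99.7 and 118 CPM in DHR39 flies, against 101, 100, 50.9, 51.7 and 99.7 CPM in controls, so the mutant lay beside the 3 high controls (log2 fold change 0.43 ± 0.23, edgeR adjusted p = 0.252). Paired as a block, where the partners are control replicates 3, 4 and 5, GstE6 passed the test at 0.76 ± 0.14 (edgeR adjusted p = 0.00502), higher in 3 of 3 pairs.

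Fat body markers had the same low controls, and midgut markers had them in their sum but not gene by gene. The summed level of 4 fat body markers was 4586 to 6005 CPM in DHR39 flies, against 9542, 8826, 6526, 6587 and 8044 CPM in controls, lowest in replicates 3 and 4 among the controls, as was each of the 3 tested genes, Lsp2, apolpp and FASN1. The summed level of 5 midgut markers was 822 to 1565 CPM in DHR39 flies. In controls it was 1722, 1350, 933, 994 and 1195 CPM, also lowest in replicates 3 and 4. Of these markers only Amy-p, an amylase gene that gave most of the sum, was itself lowest in these controls. It was at 676, 1417 and 1167 CPM in DHR39 flies, against 1492, 1092, 649.5, 737 and 996 CPM in controls. Another of them, mag, was highest in control replicate 3. Their part in the spread of the epsilon genes was not tested.

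**Figure D4:**
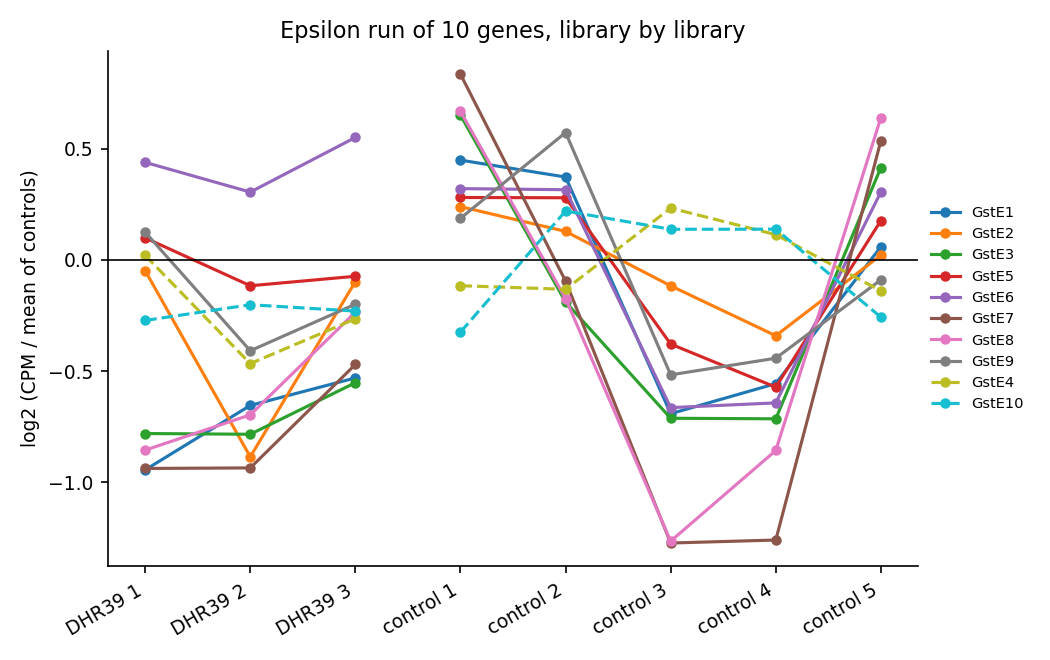
Level of each gene of the epsilon run in each library, as log2 of CPM over the mean of the controls, with lines that only join the points of a gene within a group and dashed lines for GstE4 and GstE10. In the 8 genes drawn with solid lines, control replicates 3 and 4 are the lowest controls, and the points of GstE6 in the 3 DHR39 libraries are above 0.

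The called epsilon genes stand outside the run. GstE11 (FBgn0034354), at 2R from 18503608 to 18505025, was at 27.3, 23.5 and 24.2 CPM in DHR39 flies, against 12.6, 19.3, 9.51, 14.3 and 14.03 CPM in controls, with no overlap. It rose by 0.84 ± 0.17 (edgeR adjusted p = 0.00549). GstE12 (FBgn0027590), at 2R from 24766718 to 24768172, is the most abundant epsilon gene and fell to 288, 247 and 258 CPM in DHR39 flies, against 446, 501, 410, 380.2 and 418 CPM in controls. All 3 mutant libraries were below every control (log2 fold change -0.71 ± 0.10, edgeR adjusted p = 0.000558). GstE12 overlaps CG3894 and GstE13 overlaps CG18659 on the opposite strand. GstE14, which is needed in ecdysteroid synthesis in the larval prothoracic gland, averaged 3.51 ± 0.184 CPM in DHR39 flies and 4.50 ± 0.634 CPM in controls (-0.36 ± 0.18, edgeR adjusted p = 0.209). It is the one member without overlap between the groups that did not pass the test.

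The theta class fell in part. GstT4 (FBgn0030484), at X from 13404749 to 13409323, was at 169, 189.7 and 168 CPM in DHR39 flies, against 314, 259, 277, 246 and 273 CPM in controls, well apart. It fell by 0.64 ± 0.097 on the log2 scale (edgeR adjusted p = 0.000670). GstT3 (FBgn0031117), at X from 20467455 to 20469796, was at 31.4, 34.9 and 34.9 CPM in DHR39 flies, against 56.4, 56.7, 36.7, 44.99 and 41.3 CPM in controls, just apart (-0.48 ± 0.15, edgeR adjusted p = 0.0401). That call was weak: it ended with library totals alone (-0.34, edgeR adjusted p = 0.1), once replicates were paired as a block (-0.28, 0.0634), and without each DHR39 replicate in turn (0.127, 0.0918 and 0.0982) or without control replicate 1, 2 or 4 (0.0822, 0.0725 and 0.0533), in a range of 0.00979 to 0.127. GstT1 and GstT2, side by side on 2R, did not pass, at 0.084 ± 0.11 and -0.30 ± 0.14 (edgeR adjusted p = 0.698 and 0.205), and with the block GstT2 passed at -0.38 ± 0.12 (0.0443).

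The omega, sigma and zeta classes showed no call in the main edgeR fit. GstS1 (FBgn0010226), at 2R from 17093246 to 17099501, is abundant in flight muscle and acts on products of lipid peroxidation. It was at 404, 390.3 and 413 CPM in DHR39 flies, against 450.1, 405, 425, 412 and 399.9 CPM in controls. The groups overlapped throughout (-0.056 ± 0.078, edgeR adjusted p = 0.715). The omega genes, relatives of the pigment gene se that makes a precursor of the red eye pigments, lie together on 3L. The most abundant of them, GstO3, averaged 85.8 ± 9.82 CPM in DHR39 flies and 84.6 ± 7.05 CPM in controls (0.020 ± 0.10, edgeR adjusted p = 0.932). GstO2 had the largest difference of the 3, 0.17 ± 0.093 (edgeR adjusted p = 0.280), which passed with library totals alone (0.31, 0.0306). The zeta genes act in the breakdown of tyrosine, and GstZ2 averaged 26.1 ± 5.90 CPM in DHR39 flies and 24.5 ± 8.13 CPM in controls (0.092 ± 0.24, edgeR adjusted p = 0.858). With the block GstZ2 passed at 0.45 ± 0.11 (0.0226). That estimate leaves out control replicates 1 and 2, the highest GstZ2 controls at 36.4 and 29.3 CPM.

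Summed over members, the make-up of the family shifted. Delta transcripts together reached 1465, 1636 and 1528 CPM in DHR39 flies, against 710, 750.3, 525, 613 and 643 CPM in controls. GstD1 alone gave most of that sum, and the other 10 delta genes summed to 401, 379.9 and 364 CPM in DHR39 flies, against 109, 132, 94.2, 97.4 and 122 CPM in controls. Epsilon transcripts together reached 786, 684 and 765 CPM in DHR39 flies, against 1180.2, 1170.2, 782, 763 and 1063 CPM in controls, so these sums overlapped. As a share of all transferase CPM, whose total includes the higher delta sum, the delta class took 48.5% ± 2.58 in DHR39 flies and 24.5% ± 1.43 in controls (SD, n = 3 and n = 5). The epsilon class took 23.4% ± 1.75 in DHR39 flies and 37.1% ± 3.54 in controls, and the theta class 8.33% ± 0.315 in DHR39 flies and 14.4% ± 1.18 in controls. The whole family summed to 3167, 3188 and 3183 CPM in DHR39 flies and to between 2308 and 2983 CPM in controls, whereas the 24 members outside the delta class summed to between 1552 and 1703 CPM in DHR39 flies and between 1719.6 and 2273 CPM in controls. These sums are descriptions and were not tested.

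**Figure D5:**
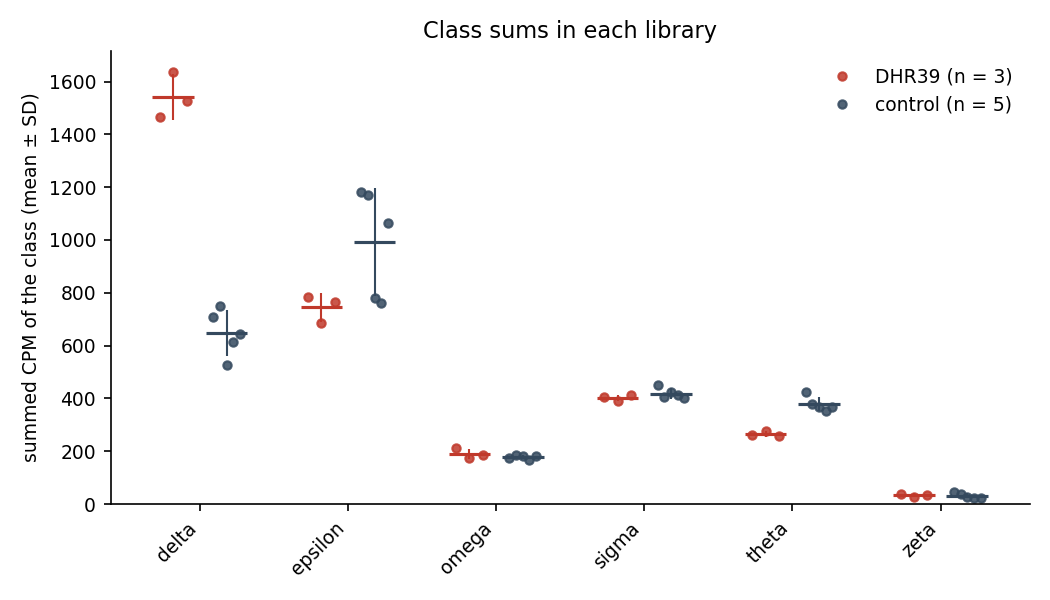
Summed CPM of each class in each library, with DHR39 libraries in red (n = 3) and controls in dark (n = 5), horizontal lines at the means and vertical lines for ± SD. Delta sums lie at 1465 or above in DHR39 flies and at 750.3 or below in controls, and theta sums lie at 277 or below in DHR39 flies and at 353 or above in controls.

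Per kilobase of exon, which allows levels to be compared between genes, GstD1 ranked first of the 35 in every library, at 1377 ± 114 in DHR39 flies and 638 ± 89.3 in controls (CPM per kb, mean ± SD). GstD2 ranked between 2 and 7 in the DHR39 libraries and between 17 and 28 in the controls, at 208 ± 69.2 and 18.9 ± 9.15 CPM per kb. In controls GstD1 was followed by GstE12, at 308 ± 32.5 CPM per kb, GstT4, at 224 ± 20.8, and GstS1, at 184 ± 8.79, with no overlap between the control libraries of neighbours in that order. Further down, the order of neighbours was mostly not resolved: of the 34 neighbouring pairs in the control order, 30 overlapped. The lowest 4 in controls were GstD11, GstD7, GstD6 and GstD4, at 3.62 ± 0.763, 2.85 ± 0.929, 0.528 ± 0.225 and 0.389 ± 0.256 CPM per kb. GstD4 and GstD6 therefore remained among the lowest 5 of the family in each DHR39 library, at ranks from 31 to 35, although their ratios were among the largest.

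Other genes of glutathione use were called in both directions. Of 31 listed genes found in the table, 4 rose, 6 fell and 21 did not pass, so that 32.3% were called, against 17.3% of all tested genes, with a median log2 fold change of 0.028. The number that rose was 1 without DHR39 replicate 2 and 1 without DHR39 replicate 3. The genes of the first enzyme of glutathione synthesis, Gclc and Gclm, stood at 0.015 ± 0.14 and 0.028 ± 0.17 (edgeR adjusted p = 0.964 and 0.942). Trxr-1, the thioredoxin reductase that in flies also keeps glutathione reduced, was at 339 ± 42.9 CPM in DHR39 flies and 304 ± 33.1 CPM in controls (0.16 ± 0.11, edgeR adjusted p = 0.423). None of the 6 recycling genes was called in the main edgeR fit, and 1, Grx1, had an unadjusted p under 0.05 in it.

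Mgstl, a membrane-bound microsomal glutathione transferase outside the classes above, fell to 115.3, 103 and 114 CPM in DHR39 flies, against 205, 214, 191, 170.0 and 175 CPM in controls, with no overlap. Its log2 fold change was -0.79 ± 0.099 (edgeR adjusted p = 0.000160). Keap1 fell to 20.7, 23.0 and 21.0 CPM in DHR39 flies, against 32.2, 25.4, 27.2, 30.7 and 24.97 CPM in controls (-0.38 ± 0.11, edgeR adjusted p = 0.0337), a call that ended with library totals alone (-0.24, 0.151) and without any one DHR39 library or control replicate 1 or 4 (0.0568 to 0.130). Its partner cnc was at 332 ± 47.7 CPM in DHR39 flies and 362 ± 27.3 CPM in controls (-0.12 ± 0.11, edgeR adjusted p = 0.528, with the sign turned to 0.021 with library totals alone).

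Ggt-1, which cleaves glutathione outside cells, rose by 0.33 ± 0.096 (edgeR adjusted p = 0.0319), and CG17636 of the same list fell by 0.59 ± 0.14 (0.0138). The call of Ggt-1 ended without DHR39 replicate 2 or 3 or control replicate 3 or 4, and that of CG17636 without DHR39 replicate 1 or 3. Of 13 genes of the ABCC family, which includes exporters of conjugates, 7 did not pass. CG11897, CG7627 and FBgn0010549 rose, by 0.43 ± 0.095, 0.43 ± 0.12 and 0.95 ± 0.24. CG4562, CG31792 and CG9270 fell, by 0.69 ± 0.15, 1.05 ± 0.30 and 0.93 ± 0.18. CG4562 and CG9270 passed in all alternatives run, and the other 4 lost the call without at least 1 library. Paired as a block, CG31792 did not pass (-1.16 ± 0.36, edgeR adjusted p = 0.0514), while Mrp4 and CG7806 of the same family did, at 0.33 ± 0.081 and 0.38 ± 0.10 (0.0171 and 0.0327), and no other gene of the 31 changed its call. MRP, a conjugate exporter of the same family, was at 387 ± 53.2 CPM in DHR39 flies and 379 ± 58.8 CPM in controls (0.029 ± 0.14, edgeR adjusted p = 0.926).

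Markers of sex and of tissues in which transferases are expressed were also compared. Of all tested genes, 6.58% were called higher and 10.7% lower, and in lists this short 1 call does not stand apart from these shares. Of 5 male markers 1 fell, Acp36DE, a seminal fluid protein gene, at 493 ± 70.1 CPM in DHR39 flies and 3377 ± 874 CPM in controls. The other 4 male markers together were at 2233 to 2504 CPM in DHR39 flies and 2197 to 2751 CPM in controls, and none of the 3 female markers was called by edgeR or had an unadjusted p under 0.05. Of 5 midgut markers 1 fell and 4 did not pass; the one that fell was mag, a digestive lipase gene, at -1.81 ± 0.18 (edgeR adjusted p = 3.15e-05). Of 6 Malpighian tubule markers 5 fell and 1 rose. The one that rose was Uro, the urate oxidase gene, at 196 ± 15.1 CPM in DHR39 flies and 89.3 ± 20.8 CPM in controls. The summed level of the 6 was 385 to 408 CPM in DHR39 flies and 374 to 404 CPM in controls. In that sum the rise of Uro offset the falls of the other 5, so it does not show that these 5 were level. Of 3 tested fat body markers 2 fell and 1 did not pass, with apolpp at -0.71 ± 0.14 (edgeR adjusted p = 0.00355). The other that fell, Lsp2, had groups that overlapped (-4.20 ± 1.29, edgeR adjusted p = 0.0442). It was at 2.13, 4.93 and 13.5 CPM in DHR39 flies, against 313, 249, 4.64, 11.7 and 45.5 CPM in controls. The female markers Cp36 and Vm26Aa were also planned but were not found by name in the count data. None of the markers found was at 0 in all libraries, and their part in the changes of transferase RNA was not tested.

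The authors' deposited table of the DHR39 comparison, which calls 19% of the genes with an adjusted p, gives the same direction to all 12 members called here. It also calls GstE1 lower, at a log2 fold change of -0.60 (adjusted p = 0.0175). For GstD2 the authors' deposited table gives 2.06 and for GstD4 2.02, smaller than the fitted values above, while for GstD1 it gives 1.07. DESeq2 run here on the deposited counts gave 3.46 for GstD2 and 3.09 for GstD4. The deposited fold changes may therefore be an unlike measure, which was not tested. The deposited table comes from the same study and is no independent check.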

How the data were processed

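Stranded libraries of poly(A) RNA were sequenced as paired ends of 51 bases, per the labels' protocols. The values used are the deposited raw counts, for 14865 genes in 8 libraries. Per the submitters' processing notes, the tools were STAR 2.6.1b, cutadapt 1.16, DESeq2 in versions 1.20.0 and 1.22.2, and featureCounts 1.6.3, and the builds named are dm6 and BDGP6. The handling of strand and of reads that match several genes was not given in the sources used here. The deposited sample sheet also holds a size factor per library, which is the authors' scaling ratio for counts, and names for replicates. The authors' deposited table of the DHR39 comparison gives log2 fold changes and adjusted p-values.

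The 35 members and the lists of pathway and marker genes were chosen with earlier results of these data known. Genes were filtered with filterByExpr (13506 left, all 35 members among them), scaled by TMM and tested in R 4.3.3 with edgeR 4.0.16, quasi-likelihood, DHR39 against control. A gene is called at a Benjamini-Hochberg adjusted p under 0.05 over all tested genes, two-sided. CPM are counts over the TMM-scaled library sizes, and each SE is the absolute log2 fold change divided by the root of its F value. Positions and exon lengths came from Ensembl release 115 of BDGP6, matched by identifier. Every member is named or counted by class, with values in each library for called members and for the most abundant member of each class; members of the epsilon run shown library by library were chosen after their values were seen. The procedure was tested on simulated data. Alternatives were other scalings and filters, DESeq2 1.42.0, voom of limma 3.58.1, a robust fit and leaving out each library.

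By the sheet's replicate names each DHR39 library has 1 partner control: DHR39 replicates 1, 2 and 3 to control replicates 3, 4 and 5. Across genes, which are not independent, deviations from group means correlated at 0.201, 0.106 and 0.172 within these pairs and at most at 0.0971 in other combinations, so the names were used as a block in an alternative fit that rests on the 3 pairs. No library repeated another: chi-square per degree of freedom was at least 17.7 between replicates.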

Additional observations from a re-analysis of the deposited data

Results flagged for a closer look

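In 97 sets of 5 control values, 2 held a library far from the rest, where chance marks about 1 in 20 sets. Gclc, a gene of glutathione synthesis, was at 239.7 CPM in control replicate 1, with the next control at 190.5 CPM. CG4829, a gene of the glutathione breakdown list, was at 55.6 CPM in control replicate 1, with the next control at 47.97 CPM. Neither gene was called, and no glutathione transferase of the 6 classes was marked in this way.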

How the results depend on the processing

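Under 17 alternatives, the numbers of members called higher (9 to 12), called lower (2 to 4) and of delta genes called higher (8 to 9) stayed within 1.5 times. Library totals alone put the median gene at a log2 fold change of 0.14, turned the split of all calls to 1992 higher and 1040 lower, against 889 and 1444, and put GstE5 at 0.12, GstE9 at 0.0072, GstS1 at 0.088 and cnc at 0.021. Relative to that shift these 4 genes stayed below the median gene. Totals without the 50 most abundant genes put GstE5 at 0.074 and GstS1 at 0.040. With the replicate block GstE5 was at 0.22, GstE9 at 0.19, GstO3 at -0.0023 and Tim17a1 at -0.026, and with voom GstE5 was at 0.014. Among the members the block changed 5 calls, those of GstD8, GstE6, GstT2, GstT3 and GstZ2, and no other. Leaving out each library in turn, log2 fold changes ran from -0.092 to 0.51 for GstD8, -0.14 to 0.053 for GstE5, -0.30 to 0.043 for GstE9, -0.079 to 0.076 for GstO3, -0.030 to 0.28 for GstZ2, -0.083 to 0.16 for Gclc, -0.054 to 0.14 for MRP and -0.11 to 0.097 for Tim17a1. None of these genes was called by edgeR in the first place. The number of pathway genes called higher ran from 1 to 4 when libraries were left out, an alternative added for that list after seeing the data; the cause was not tested. At this depth 3 counts correspond to 0.150 to 0.187 CPM, so GstD4 in the controls and GstD6 in some controls were measured close to that limit. In control replicate 3 GstD4 was below it.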
